A study of Macaca mulatta with 25 samples.

Results

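The Krüppel-like factors (KLF) are a family of transcription factors, and 10 of its genes, KLF2, KLF4, KLF5, KLF6, KLF7, KLF9, KLF10, KLF11, KLF13 and KLF15, were described in the cervix of rhesus macaques under estradiol and progesterone. Members were found by exact gene symbol in the probe annotation, and 8 of the 10 genes had a probe set, which is a group of array probes read as a single value. KLF6 and KLF13 were not listed and were not analysed here. The array held 40489 probe sets, and 16020 of them carried 1 gene symbol, for 15534 genes. A gene with several probe sets was to be represented by the one with the highest mean signal over all arrays, but each of the 8 genes had only 1, so no choice was made. The 10 genes were selected from the family with earlier results of these data known, so their changes are a description of these animals and not an independent test of the family.

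All 25 animals were adult, ovariectomized and carried an estradiol implant, and the cervix of each was measured on 1 whole-transcript expression array. E2 animals received estradiol alone for 14 days. Animals of E+1P carried a progesterone implant as well for 1 day, those of E+3P for 3 days, those of E+7P for 7 days and those of E+14P for 14 days, and every group had 5 animals. The labels do not give the length of estradiol treatment in the progesterone groups, and the design text of the series gives other group sizes (13, 4, 5, 5 and 10) than the labels used here. Each array came from a separate animal, so the p-values measure the spread between animals. Values are log2 signals, on which a difference of 1 is a doubling. In pieces of whole tissue, fewer cells of a type and less RNA per cell cannot be told apart.

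KLF proteins bind GC-rich and CACCC sequences in promoters through zinc fingers at their carboxyl end, a domain shared with the SP transcription factors. The family falls into groups by what the rest of the protein binds. KLF2, KLF4, KLF5, KLF6 and KLF7 mostly activate genes with acetyltransferase partners, KLF9, KLF10, KLF11 and KLF13 can repress genes through the SIN3A corepressor, and KLF3, KLF8 and KLF12 repress through CTBP proteins. Several members are known from the reproductive tract: KLF9 binds the progesterone receptor in endometrial cells, and in mouse uterine epithelium KLF15 responds to progesterone and limits DNA synthesis driven by estradiol.

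The tissue makeup of 3 arrays, 2 of E+3P and 1 of E+14P, stood apart: their mean signal of squamous, columnar or ciliated cell genes lay more than 4 scaled median absolute deviations away from that of the median array. E+3P replicate 2 was low in the columnar mean (5.24, against 6.34 to 8.02 on the other arrays) and in the ciliated mean, and high in the means of endothelium and of fat and skeletal muscle. E+3P replicate 3 had the highest squamous mean (10.44) and a low ciliated mean, and E+14P replicate 4 had a low ciliated mean. Columnar genes, all 20 of which were measured, ranged in their mean from 7.23 to 8.02 in E2 and from 5.24 to 7.84 in E+3P, and smooth muscle genes, of which 14 of 15 were measured, from 6.19 to 8.11 and from 6.42 to 9.05.

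KLF7 and KLF11 were higher under progesterone from day 3 to day 14, and KLF9 and KLF15 were higher on day 3. A member was called changed at an adjusted p under 0.05 from limma, fitted to all probe sets with Benjamini-Hochberg adjustment over all 40489. Against E2, 0 of 8 members were called on day 1, 4 on day 3 (KLF7, KLF9, KLF11 and KLF15), 2 on day 7 and 2 on day 14 (KLF7 and KLF11 both times), all of them higher. Of all probe sets, 1.39% were called higher on day 1, 5.07% on day 3, 1.83% on day 7 and 1.48% on day 14. The adjustment runs within each comparison, so an unadjusted p that is called on day 3 can miss the threshold on day 1. Between days 3 and 1 only KLF7 was called, so these counts do not date the start of a change. On day 1, 2 members, KLF11 and KLF15, had an unadjusted p under 0.05, against 13.3% of all probe sets in either direction. The median change of the 8 members was 0.32, 0.48, 0.38 and 0.33 on days 1, 3, 7 and 14, where the median of all probe sets was 0.01, 0.05, 0.03 and 0.03. These 4 comparisons share the same E2 animals, so a low or high E2 array moves all of them together. Over the 4 comparisons jointly, limma's F test called KLF7 (adjusted p = 0.00036) and KLF11 (adjusted p = 0.00506), and it called 8.87% of all probe sets. Without the 3 arrays that stood apart the counts were 0, 3, 2 and 2, since KLF9 was no longer called on day 3. Of all probe sets, that fit called 1311, 1891, 2121 and 1248 in either direction, against 938, 4214, 1695 and 1528 with all arrays. In that fit KLF15 on day 3 was just under the threshold (adjusted p = 0.0499) and KLF10 just over it (adjusted p = 0.0504).

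**Figure D1:**
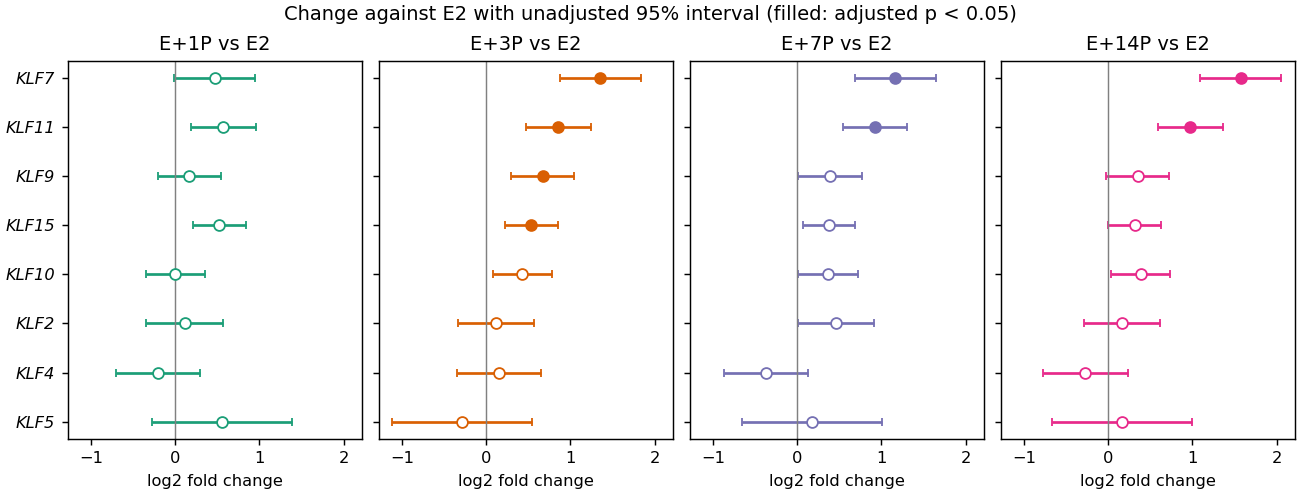
Each panel is a progesterone time against E2, with the log2 fold change of the 8 measured KLF genes on the horizontal axis and the 95% interval of limma's fit, unadjusted for multiple testing, as bars. Filled points were called at an adjusted p under 0.05: 0, 4, 2 and 2 genes from left to right, with KLF7 farthest to the right from day 3 onward.

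KLF7, first described as a ubiquitous KLF and known in mice for its part in neuron growth, had the largest change of the members on days 3, 7 and 14. On the 5 E2 arrays its log2 signal was 6.74, 6.66, 7.41, 6.55 and 6.45. On day 1 the arrays read 7.42, 7.27, 7.20, 7.06 and 7.22, and on day 3 they read 8.48, 8.53, 8.50, 7.77 and 7.29. The day 1 arrays therefore lay above 4 of the E2 arrays and mostly below the fifth, E2 replicate 3, and 4 of the day 3 arrays lay above all of E2. On day 7 the signal was 7.84, 8.53, 7.63, 7.97 and 7.68, and on day 14 it was 8.05, 8.71, 8.32, 8.70 and 7.89. Every array of days 7 and 14 was above every E2 array, as was the case for 3.47% and 2.55% of all probe sets.

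The group mean of KLF7 was 6.76 ± 0.38 in E2 (SD, n = 5), 7.23 ± 0.13 in E+1P, 8.12 ± 0.56 in E+3P, 7.93 ± 0.36 in E+7P and 8.34 ± 0.37 in E+14P. By limma the difference from E2 was 0.47 on day 1 (SE 0.23, adjusted p = 0.386), 1.35 on day 3 (adjusted p = 0.00128), 1.17 on day 7 (adjusted p = 0.00456) and 1.57 on day 14 (adjusted p = 0.000473). The day 14 value corresponds to a 2.98-fold higher signal with a 95% interval of 2.13 to 4.15. Day 3 was also higher than day 1 by 0.88 (adjusted p = 0.0319), where 1.41% of all probe sets were called higher, but this call was lost in 5 of 13 alternative settings and 7 of 10 fits with an array left out, and the difference was 0.17 with 3 covariates for tissue makeup. Neighbouring later times did not differ beyond their spread: day 7 minus day 3 was -0.19 (95% interval -0.67 to 0.29) and day 14 minus day 7 was 0.41 (-0.07 to 0.89).

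**Figure D2:**
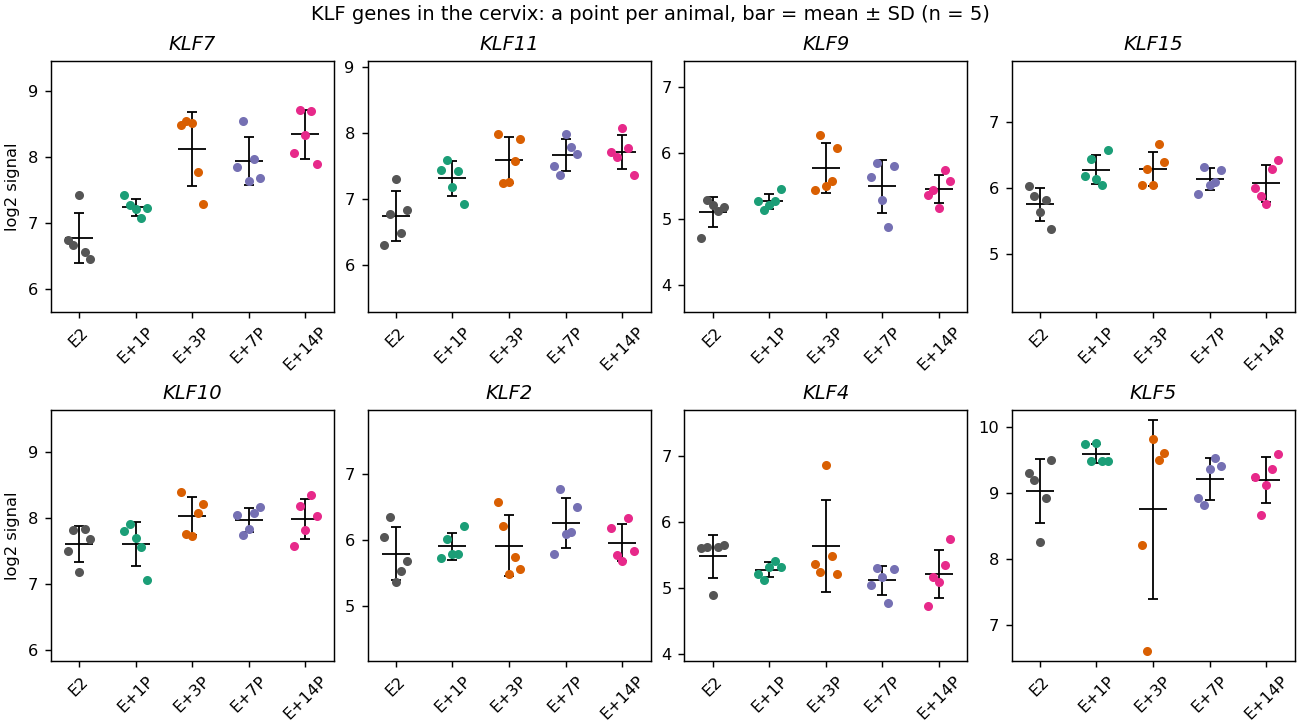
Log2 signal (vertical axis, the same span of signal in each panel) of the 8 measured KLF genes in the 5 groups; points are animals, and bars are the group mean ± SD (n = 5). KLF7 and KLF11 sit above all E2 arrays on days 7 and 14, and single arrays lie far from their groups for KLF4 (6.86 on day 3) and KLF5 (6.61 on day 3).

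KLF11, which was found as a gene induced early by transforming growth factor beta and which slows cell growth in culture, was higher by a nearly constant amount from day 3 onward. Its E2 arrays read 6.31, 6.78, 7.31, 6.49 and 6.84, and its day 1 arrays 7.44, 7.60, 7.18, 7.43 and 6.93. The signal was 7.99, 7.25, 7.26, 7.59 and 7.91 on day 3. As with KLF7, the high E2 array was replicate 3, and it was the only E2 array that reached into the range of days 1 and 3. On day 7 the arrays read 7.50, 7.37, 7.99, 7.79 and 7.69, and on day 14 they read 7.72, 7.65, 8.08, 7.78 and 7.36, every one above all of E2. Group means went from 6.75 ± 0.38 in E2 (SD, n = 5) to 7.32 ± 0.26, 7.60 ± 0.35, 7.67 ± 0.24 and 7.72 ± 0.26 on days 1, 3, 7 and 14. The differences from E2 by limma were 0.57 on day 1 (SE 0.19, adjusted p = 0.121), 0.85 on day 3 (adjusted p = 0.00666), 0.92 on day 7 (adjusted p = 0.00499) and 0.97 on day 14 (adjusted p = 0.00379). The fold on day 14 was 1.96 (95% interval 1.503 to 2.56). None of the steps between neighbouring progesterone times was called, the largest being 0.28 from day 1 to day 3 (adjusted p = 0.392). Day 1 was called without E2 replicate 3, with a difference of 0.71, and day 3 was not called when only the E2 and E+3P arrays entered the fit (adjusted p = 0.0658).

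KLF9, which binds the progesterone receptor in endometrial cells and is also a known target of glucocorticoid and thyroid hormone, was 1.59-fold higher on day 3 (95% interval 1.23 to 2.06). The E2 arrays read 4.70, 5.28, 5.21, 5.12 and 5.18, those of day 1 read 5.26, 5.13, 5.21, 5.27 and 5.44, and those of day 3 read 5.44, 6.27, 5.49, 5.58 and 6.06. All 5 day 3 arrays lay above all E2 arrays, which held for 3.94% of all probe sets, while day 1 overlapped with E2. Days 7 and 14 also overlapped with E2, with 5.63, 5.85, 5.28, 4.88 and 5.80 on day 7 and 5.35, 5.44, 5.16, 5.73 and 5.56 on day 14. The difference on day 3 was 0.67 (SE 0.18, adjusted p = 0.0218), after 0.17 on day 1 (adjusted p = 0.777) and before 0.39 on day 7 (adjusted p = 0.268) and 0.35 on day 14 (adjusted p = 0.33). Day 7 minus day 3 was -0.28 with a 95% interval of -0.66 to 0.09, so a return toward E2 was not detectable. The day 3 call was lost without E2 replicate 1 (0.57, adjusted p = 0.0582), without E+3P replicate 2 (0.54, adjusted p = 0.0691) and in 7 of 13 other settings, among them the 3 covariates for tissue makeup (0.48, adjusted p = 0.237). The mean signal of KLF9 over all arrays was 5.41 and that of KLF4 5.34, below the median probe set (5.54). KLF7 and KLF11 had means of 7.68 and 7.41.

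KLF10, the close relative of KLF11 and likewise induced early by transforming growth factor beta, was called at no time. Its signal was 7.17 to 7.83 in E2 with a median of 7.68, 7.06 to 7.90 on day 1 (median 7.69), 7.72 to 8.39 on day 3 (median 8.08), 7.74 to 8.16 on day 7 (median 8.04) and 7.57 to 8.34 on day 14 (median 8.02). Every progesterone group overlapped with E2, and 3 of 5 arrays lay above all of E2 on each of days 3, 7 and 14. The differences there were 0.43, 0.37 and 0.38, with 95% intervals that began at 0.08, 0.01 and 0.03 and adjusted p-values of 0.107, 0.271 and 0.245. On day 1 the difference was 0.00, with an interval of -0.35 to 0.36. Without the 3 arrays that stood apart, the day 3 difference of KLF10 was 0.62 and narrowly not called (adjusted p = 0.0504). In the same fit KLF15 was called at a like difference of 0.61 (adjusted p = 0.0499).

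KLF15, a glucocorticoid-induced regulator of amino acid breakdown in muscle that is also raised by progesterone in mouse uterine epithelium, had its largest differences on days 1 and 3. The E2 arrays read 6.03, 5.88, 5.64, 5.82 and 5.39. The arrays of day 1 read 6.18, 6.44, 6.13, 6.05 and 6.57, and those of day 3 read 6.05, 6.29, 6.05, 6.66 and 6.39. All of them lay above all of E2, narrowly so for the lowest, a separation seen for 3.1% of all probe sets on day 1. The later groups overlapped with E2, at 5.92, 6.32, 6.05, 6.09 and 6.27 on day 7 and 5.995, 5.88, 5.75, 6.29 and 6.43 on day 14. By limma KLF15 was higher than E2 by 0.53 on day 3 (SE 0.15, adjusted p = 0.0273). The equally large difference of 0.52 on day 1 was not called (adjusted p = 0.0732), nor were 0.38 on day 7 (adjusted p = 0.185) and 0.32 on day 14 (adjusted p = 0.287). Day 3 minus day 1 was 0.01, with a 95% interval of -0.30 to 0.33. The day 3 call was lost without E2 replicate 3 or 5 or without E+3P replicate 2 or 4, where the adjusted p reached at most 0.0782, and in 4 of 13 other settings.

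KLF2, KLF4 and KLF5 were called in none of the 7 comparisons. KLF2, which keeps endothelial cells quiescent under blood flow, read 5.36 to 6.35 in E2, 5.73 to 6.21 on day 1, 5.49 to 6.57 on day 3, 5.78 to 6.77 on day 7 and 5.68 to 6.33 on day 14. These ranges overlapped throughout, and the largest difference from E2 was 0.46 on day 7 (95% interval 0.01 to 0.92, adjusted p = 0.279). KLF4, known for barrier formation in squamous epithelium and as a reprogramming factor, was the member with a lower mean than E2 on days 1, 7 and 14. Its E2 arrays read 5.61, 5.61, 4.89, 5.62 and 5.65, and those of day 7 read 5.04, 5.29, 5.16, 4.77 and 5.27. Of the day 7 arrays 4 lay between the low E2 array and the other E2 arrays, and the difference was -0.37 (95% interval -0.87 to 0.13, adjusted p = 0.471). On day 3 the KLF4 arrays read 5.36, 5.23, 6.86, 5.48 and 5.20, and the high value belonged to the array with the highest squamous mean. With that array the difference from E2 on day 3 was 0.15, and without the 3 arrays that stood apart it was -0.13.

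KLF5, known from the dividing cells of glandular and basal epithelium, had the widest spread on day 3. The arrays read 9.30, 9.19, 8.26, 8.93 and 9.50 in E2, and 9.74, 9.49, 9.77, 9.49 and 9.49 on day 1. On day 3 they read 8.21, 6.61, 9.82, 9.51 and 9.61, with the lowest value on the array whose columnar mean was lowest. Days 7 and 14 ranged from 8.81 to 9.53 and from 8.66 to 9.59, within or close to the range of E2. The mean was 8.75 ± 1.36 on day 3 (SD, n = 5) against 9.04 ± 0.48 in E2, a difference of -0.28 (95% interval -1.12 to 0.55, adjusted p = 0.687). Without the 3 arrays that stood apart the same difference was 0.07. On day 1 the difference was 0.56 with an interval of -0.27 to 1.39. This interval uses a spread shared by all 5 groups, the wide day 3 group among them. With only the E2 and E+1P arrays in limma's fit the SE was 0.196, against 0.402 with all groups. The day 1 difference of KLF5 was not called in that fit either (adjusted p = 0.176).

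Between neighbouring progesterone times after day 3, 0 of 8 members were called. From day 3 to day 7, 1 member (KLF4, -0.52, adjusted p = 0.439) had an unadjusted p under 0.05, where 11.1% of all probe sets did, and limma called 0.00494% of all probe sets higher. From day 7 to day 14 no member reached an unadjusted p of 0.05, where 4.27% of all probe sets did, and 0% were called higher.

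Within the groups, the signals of KLF5 and KLF7 moved with the mean signal of columnar and of smooth muscle genes. That of KLF4 moved with the mean signal of squamous genes when all arrays were fitted. The mean signal of each of 5 gene lists (squamous, columnar, smooth muscle, endothelium and immediate early genes) was fitted in turn beside the group, a fit chosen after seeing the data. KLF7 was higher on arrays with more smooth muscle signal (slope 0.38 log2 units per unit of the list mean, SE 0.05, adjusted p = 3.02e-05) and lower on arrays with more columnar signal (slope -0.56, adjusted p = 0.00294). KLF5 had the opposite signs, with 1.01 on the columnar mean (adjusted p = 0.00178) and -0.56 on the smooth muscle mean (adjusted p = 0.00423). These 4 slopes were also called without the 3 arrays that stood apart, where they were 0.37, -1.05, 1.36 and -0.44 in the same order. KLF4 was higher on arrays with more squamous signal (slope 0.23, adjusted p = 0.000514), and without those arrays the slope was 0.16 and not called (adjusted p = 0.377). Such slopes were called for 1.57% of all probe sets on the squamous mean, 6.76% on the columnar mean and 5.83% on the smooth muscle mean. No member had a called slope on the endothelial mean, where 0.358% of all probe sets did, or on the immediate early mean, where 0.00988% did. At an unadjusted p under 0.05 only KLF5 reached the endothelial slope (-2.13, adjusted p = 0.13) and no member the immediate early one. Without the 3 arrays that stood apart the endothelial slope of KLF5 had the other sign (0.68, SE 0.82) and was not called.

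**Figure D3:**
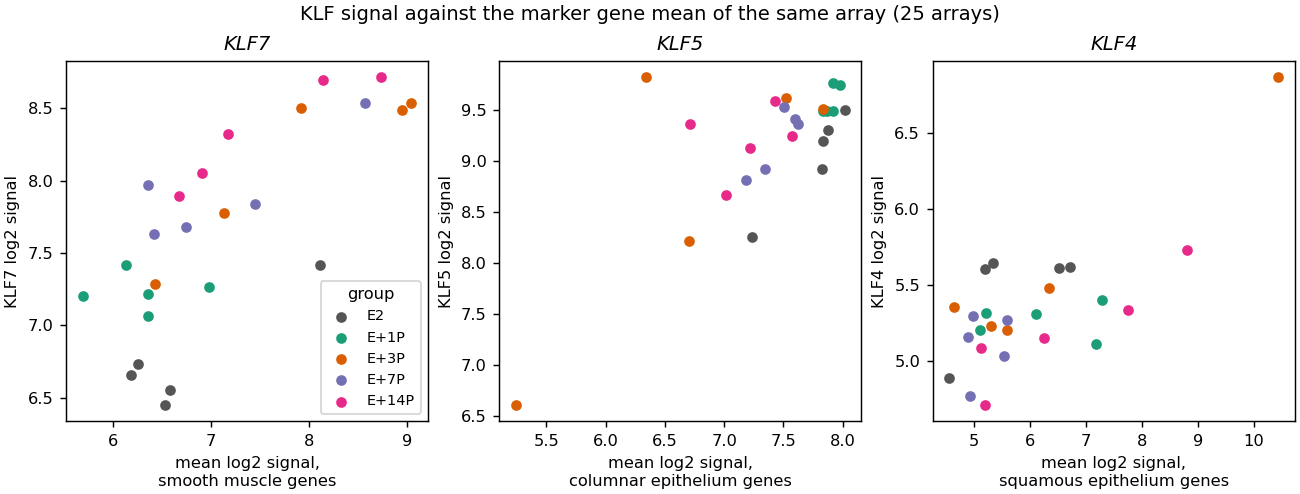
Log2 signal of KLF7, KLF5 and KLF4 (vertical axes) on each of the 25 arrays against the mean log2 signal of smooth muscle, columnar and squamous genes on the same array (horizontal axes), coloured by group. KLF7 is highest on progesterone arrays with a high smooth muscle mean, and the E2 arrays lie below the progesterone arrays of a like mean; KLF5 is lowest where the columnar mean is lowest, and KLF4 is highest on the E+3P array with a squamous mean of 10.44.

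The mean of the smooth muscle genes was 6.19 to 8.11 in E2, 5.69 to 6.98 on day 1, 6.42 to 9.05 on day 3, 6.36 to 8.57 on day 7 and 6.67 to 8.74 on day 14. E2 replicate 3, the E2 array with the highest KLF7, was the one at 8.11. With the squamous, columnar and smooth muscle means as 3 covariates, KLF7 was higher than E2 by 0.63 on day 1 (adjusted p = 0.00529), 0.80 on day 3 (adjusted p = 0.0052), 0.99 on day 7 (adjusted p = 9.13e-05) and 1.22 on day 14 (adjusted p = 3.94e-05). The difference between days 3 and 1 was then 0.17 (adjusted p = 0.716), against 0.88 without covariates. KLF11 with the same covariates was higher by 0.61 on day 1 (adjusted p = 0.0687), 1.03 on day 3 (adjusted p = 0.0115), 0.92 on day 7 (adjusted p = 0.00414) and 1.09 on day 14 (adjusted p = 0.00271).

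**Figure D4:**
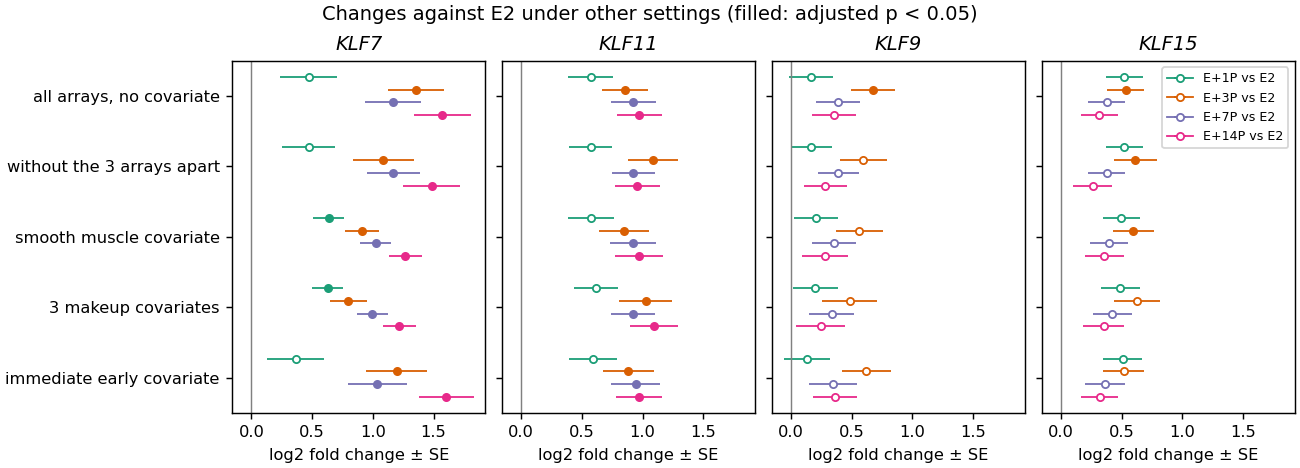
Log2 fold change against E2 (horizontal axis) ± SE for KLF7, KLF11, KLF9 and KLF15 at the 4 progesterone times, with all arrays, without the 3 arrays that stood apart, and with covariates for tissue makeup or immediate early genes. Filled points were called at an adjusted p under 0.05: KLF7 and KLF11 are filled on days 3, 7 and 14 in every row, KLF7 on day 1 also with the smooth muscle covariate and with 3 makeup covariates, KLF9 on day 3 only in the top row, and KLF15 on day 3 in 3 of the 5 rows.

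The rest of the KLF and SP family was read from a list of 17 other genes, of which 15 were measured and KLF16 and KLF18 were not listed. Against E2, 1 was called higher on day 1 and 2 on each of days 3, 7 and 14, and 0 were called lower at any of the 4 times. Of all probe sets, 1.39%, 5.07%, 1.83% and 1.48% were called higher on these days. The median changes of the list were 0.15, 0.22, 0.19 and 0.14, against 0.01, 0.05, 0.03 and 0.03 for all probe sets. KLF12, a CTBP-binding repressor known to oppose decidualization of human endometrial stromal cells, rose on day 1 by 0.60 (adjusted p = 0.0302), a call that was kept in 13 of 13 alternative settings but in only 1 of 10 fits with an array left out. Its differences on days 3, 7 and 14 were 0.24, 0.44 and 0.44 and were not called (adjusted p = 0.311, 0.108 and 0.107). KLF3, a CTBP-binding repressor known from fat and blood cells, rose by 0.52 on day 3 (adjusted p = 0.00912), 0.47 on day 7 (adjusted p = 0.0264, called in 5 of 10 fits with an array left out) and 0.59 on day 14 (adjusted p = 0.0056). Its other probe set was not called, with 0.33, 0.16 and 0.07 at those times, so the probe sets of KLF3 disagreed. KLF8, another repressor of this group, rose by 0.48 on day 3 (adjusted p = 0.045), which was called in only 4 of 13 alternative settings and 3 of 10 fits with an array left out. On day 1 its difference was 0.56 and was not called (adjusted p = 0.0518). Every day 1 array of KLF8 lay above all of E2, as for 3.1% of all probe sets. SP4, a GC-box factor known mainly from neurons, rose by 0.72 on day 7 (adjusted p = 0.00669) and 0.80 on day 14 (adjusted p = 0.00333), in all 13 alternatives and all 10 fits with an array left out. The other 11 measured genes, SP1 and SP3 among them, were called in no comparison.

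Proteins that KLF factors are known to act with were read from a list of 12 genes, all measured. Of these, 1 was called higher on day 1, 1 on day 3, 2 on day 7 and 1 on day 14, and 0 were called lower, while the F test over the 4 comparisons called 4 (CREBBP, WWP1, EP300 and KAT2B), against 8.87% of all probe sets. The shares of all probe sets called higher were 1.39%, 5.07%, 1.83% and 1.48%. The list's median changes were -0.03, -0.06, 0.02 and 0.02. WWP1, a ubiquitin ligase that marks KLF5 for degradation, rose on day 1 by 0.71 (adjusted p = 0.00354) and was not called later. The acetyltransferase genes CREBBP and EP300 rose on day 7 by 0.49 (adjusted p = 0.00337) and 0.33 (adjusted p = 0.0177), CREBBP also on day 14 (0.35, adjusted p = 0.0335) and EP300 also on day 3 (0.25, adjusted p = 0.044). The call of CREBBP on day 14 was made in only 3 of 10 fits with an array left out, and that of EP300 on day 3 in 2 of 10. SIN3A, SIN3B, CTBP1 and CTBP2 were called in none of the comparisons with E2.

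Of 12 genes known as KLF targets in other tissues, 10 were measured. On days 1, 3, 7 and 14 the numbers called higher were 1, 2, 1 and 1, and those called lower were 0, 0, 1 and 2, where 0.929%, 5.34%, 2.36% and 2.29% of all probe sets were called lower. The shares of all probe sets called higher were 1.39%, 5.07%, 1.83% and 1.48%. The list's median changes were 0.19, 0.30, 0.18 and 0.08. PDK4, which limits glucose oxidation and is raised by glucocorticoid, rose at all 4 times by 2.08, 2.19, 2.33 and 1.92 (adjusted p at most 0.0415), although each group overlapped with E2 and the calls of days 1 and 14 were made in only 2 and 3 of 10 fits with an array left out. CCND1, the cyclin D1 gene that drives entry into the cell cycle, fell by 0.76 on day 7 (adjusted p = 0.00305) and by 1.17 on day 14 (adjusted p = 7.5e-05). Its values of 0.50 on day 1 (adjusted p = 0.0629) and -0.37 on day 3 (adjusted p = 0.0978) were not called. Day 3 minus day 1 was -0.87 for CCND1 and was called (limma, adjusted p = 0.000852). In that comparison 1790 of 40489 probe sets were called in either direction. SMAD7, an inhibitor of transforming growth factor beta signalling, rose on day 3 by 0.51 (adjusted p = 0.0162). That call did not hold once E+3P replicate 2 was left out (adjusted p = 0.0519) or in 5 of 13 alternative settings. Its change ranged from 0.41 to 0.58 over the 10 fits with an array left out and from 0.29 to 0.56 over the 13 settings. CDKN1A, a cell cycle inhibitor gene named after its values were seen, fell on day 14 by 0.59 (adjusted p = 0.047).

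Steroid receptors and steroid-responsive genes were read at the same times. Of 6 steroid receptor genes 5 were measured, with 2, 2, 1 and 1 called lower on days 1, 3, 7 and 14 and 0 called higher. The shares of all probe sets called lower were 0.929%, 5.34%, 2.36% and 2.29%. The list's median changes were -0.40, -0.52, -0.01 and -0.23. PGR, the progesterone receptor, fell at all 4 times, by 1.10, 1.56, 1.17 and 0.76, and ESR1, the estrogen receptor alpha, fell on days 1 and 3 by 0.92 and 0.79 (adjusted p at most 0.0354 for these 6 values). The day 14 fall of PGR was called in only 3 of 10 fits with an array left out, and the day 3 fall of ESR1 was not called without E+3P replicate 2 or in 6 of 13 alternative settings, where its change ranged from -0.84 to -0.34 over all 13. Of 16 known progestin and glucocorticoid targets 14 were measured, and 3, 5, 6 and 5 were called higher with 0 lower. The shares of all probe sets called higher were 1.39%, 5.07%, 1.83% and 1.48%. The median changes of these targets were 0.27, 0.43, 0.57 and 0.48. FKBP5, a chaperone partner of steroid receptors, rose most on day 1, by 2.39 (adjusted p = 1.99e-06), and then by 2.06, 1.496 and 1.58. TSC22D3, a glucocorticoid-induced anti-inflammatory factor, rose by 1.03 on day 1 and by 0.85 to 0.98 later, and FOXO1, a forkhead factor of decidual cells, was not called on day 1 (0.13) and rose by 1.06, 0.92 and 1.14 on days 3, 7 and 14 (adjusted p at most 0.00811 for the called values). The others called were DDIT4 on day 1 (1.22), ZBTB16 on days 3, 7 and 14 (0.79, 0.72 and 0.87), ERRFI1 on the same days (0.94, 1.16 and 1.28) and TXNIP on day 7 (0.68), which were named after their values were seen.

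Immediate early genes, which also change with tissue handling, were counted because several KLF genes are induced by the same stimuli. Of 26 listed genes other than KLF, 20 were measured, and 3, 2, 1 and 1 were called higher with 0, 0, 0 and 1 lower. The shares of all probe sets called higher were 1.39%, 5.07%, 1.83% and 1.48%, and 2.29% were called lower on day 14. The median changes of these genes were 0.04, 0.18, 0.10 and -0.06, against 0.01, 0.05, 0.03 and 0.03 for all probe sets. Their mean signal ranged from 5.93 to 6.23 in E2, 6.03 to 6.39 on day 1, 6.003 to 6.38 on day 3, 6.07 to 6.42 on day 7 and 5.91 to 6.28 on day 14. BTG2, an antiproliferative gene, rose on day 1 by 1.56 (adjusted p = 4.35e-05) and was at 0.02, 0.19 and -0.24 afterwards. JUN, part of the AP-1 factor, rose at all 4 times, by 1.37, 1.46, 1.70 and 1.99 (adjusted p at most 0.00141). DUSP1, a phosphatase that limits kinase signalling, rose on days 1 and 3 by 1.06 and 0.89 (adjusted p = 0.00583 and 0.0112), and EGR1, a zinc-finger factor named after its values were seen, fell on day 14 by 1.01 (adjusted p = 0.0368). With the immediate early mean as a covariate KLF7 and KLF11 were called on days 3, 7 and 14, while KLF9 and KLF15 were not called on day 3 at changes of nearly the same size, 0.62 (adjusted p = 0.08) and 0.52 (adjusted p = 0.0829) against 0.67 and 0.53 without the covariate.

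The genes whose signal was most like each member over the 25 arrays were taken from 9156 genes outside the KLF and SP families, and the correlations describe arrays that share groups and tissue makeup. KLF7 was most like ABI3BP, an extracellular matrix protein gene (Pearson r = 0.94, and 0.85 for deviations from the group means), and MASP1, a protease gene of the complement lectin pathway (0.92 and 0.78). KLF5 was most like SERINC2 (0.91 and 0.92) and GRHL2, an epithelial transcription factor gene (0.91 and 0.91). The array of the lowest columnar mean, where KLF5 was lowest (6.61), was among these points. KLF4 was most like LY6D, a surface protein gene of keratinocytes (0.88 and 0.91), and MCM4, a DNA replication helicase subunit gene (0.86 and 0.83), with the array of high squamous signal among the points. KLF11 was most like HP1BP3 (0.85 and 0.62) and PNRC1 (0.83 and 0.58). The best matches of KLF15 were NATD1 (0.76 and 0.59) and IGDCC3 (0.74 and 0.58), and those of KLF9 were SLC2A4RG (0.72 and 0.50) and MRTFB (0.70 and 0.57). Those of KLF10 were ARID5B (0.75 and 0.71) and BRD2 (0.74 and 0.61), and those of KLF2 were CTDSP1 (0.68 and 0.65) and OGG1 (0.67 and 0.64). Each pair was picked as the highest of 9156 correlations, which by itself favours high values. How high unrelated genes would reach over 25 arrays was not tested, so the lower matches, as for KLF2 and KLF9, may be unrelated genes.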

How the data were processed

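The deposited table holds log2 signals of 40489 probe sets on 25 arrays. Per the submitters' processing notes the authors used Affymetrix Expression Console; for its version and its ways of summarizing and normalizing, nothing is stated in what was used here. The values, 0.618 to 13.69, have the range of log2 signals, and array medians were 5.50 to 5.60. No detection calls were used, so signal over background is unknown. Symbols came from the platform annotation: 16020 probe sets carried 1 symbol, 490 several and 23979 none.

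The log2 signals were fitted with limma 3.58.1 (R 4.3.3), with 1 coefficient per group over all 25 arrays and a mean trend in the variance prior, for 7 comparisons and an F test. Tests were 2-sided with Benjamini-Hochberg adjustment over all probe sets at 0.05, after a test on simulated data. Intervals are 95% and unadjusted. No batch or pairing is given in the labels. Named genes were the members, called KLF and SP genes, the 2 genes most like each member with a mean at or above the median probe set, and up to 3 genes of lowest F test p from each list. The members and lists were chosen with earlier results of these data known. Alternatives changed normalization, filter, variance model, array weights, samples, probe set choice and makeup covariates; the covariate of smooth muscle alone and the slopes were chosen after seeing the data. No genome or sequence table was used, so no sequence is shown.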

Additional observations from a re-analysis of the deposited data

Results flagged for a closer look

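In each of 40 sets of 5 values (8 genes in 5 groups), the highest and lowest arrays were compared with the rest. An array lay far from the others in 3 sets. Chance gives about 1 in 20 sets, so 3 of 40 is near that rate. KLF4 read 4.89 on E2 replicate 3, against 5.61 for the nearest E2 array. KLF4 read 6.86 on E+3P replicate 3, against 5.48 for the nearest array of its group, and this array also had the highest squamous mean (10.44). KLF9 read 4.70 on E2 replicate 1, against 5.12 for the nearest E2 array, and the day 3 call of KLF9 was lost without it. The effect of progesterone on KLF7 differed between days 3 and 1 by 0.88 (limma, adjusted p = 0.0319, 4 of 5 day 3 arrays above all day 1 arrays), and by 0.17 with 3 makeup covariates. The part of tissue makeup in that difference was not tested beyond these fits.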

How the results depend on the processing

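KLF7 and KLF11 kept their calls on days 7 and 14 and in the F test under all alternatives run and in all fits with an array left out, and no called change of KLF7, KLF9, KLF11 or KLF15 turned its sign. The count on day 1 (0) became 1 after leaving out probe sets of a mean signal under the 40th percentile (5.09) or with 1 probe set per gene (KLF15 both times), 2 with array weights (KLF11 and KLF15), and 1 with 3 makeup covariates or smooth muscle alone (KLF7), and ranged from 0 to 1 with an array left out. Calls over all probe sets, in either direction, moved as well. On day 1 they went from 938 to 1986 with array weights, 1480 with 3 makeup covariates and 1141 with smooth muscle alone. They were 1054 of 24293 after the filter and 744 of 15534 with 1 probe set per gene. The count on day 3 (4) became 1 with the groups compared alone and 2 with 3 makeup covariates, the endothelial mean or the immediate early mean as covariate, and ranged from 2 to 4 with an array left out, 2 without E+3P replicate 2. The count of day 3 against day 1 (1) became 0 with the groups alone, without the 3 arrays that stood apart, and with 3 makeup, endothelial or smooth muscle covariates, and ranged from 0 to 1 with an array left out. Over all probe sets, the calls on day 3 went from 4214 to 1765 with 3 makeup covariates. They were 893 with the endothelial mean and 1775 with the immediate early mean. For day 3 against day 1 the calls over all probe sets went from 1790 to 515 without the 3 arrays that stood apart. They were 341, 402 and 416 with 3 makeup, endothelial and smooth muscle covariates. The causes were not tested. No paired analysis was made, since each array came from a separate animal. The labels carry no replicate numbers, and the replicate numbers used here follow the order of the samples within each group. The number of arrays limits precision, and signal over background is unknown.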
